A study of Mus musculus with 27 samples.

Results

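Nuclei of the choroid plexus epithelium were examined in single-nucleus RNA-seq libraries of mouse hippocampus, 1 library from each of 27 mice. A nucleus was taken as choroid plexus when it had between 200 and 4000 genes detected and at most 5% mitochondrial UMIs (unique molecular identifiers, the counted RNA molecules), at least 1 UMI of Ttr, at least 3 of the 6 genes Htr2c, Otx2os1, Kl, Clic6, Folr1 and Enpp2 detected, and no more than 1 UMI each for the gene pairs Slc17a7 and Camk2a, Mog and Mag, and Gad1 and Gad2. This gave 2892 choroid plexus nuclei among 221281 nuclei that passed the gene-count and mitochondrial limits, out of 241938 deposited barcodes. The nuclei were thus picked by their own counts, so the levels of the 7 genes it required, and of the 6 genes it limited, are a description only.

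The choroid plexus is a sheet of epithelium that hangs in the brain ventricles, secretes cerebrospinal fluid by moving ions and water from blood to ventricle, and is joined by tight junctions into the barrier between blood and cerebrospinal fluid. Its cells make transthyretin (Ttr), the carrier of thyroid hormone and retinol-binding protein, in large amounts, and carry transporters for hormones, vitamins and drugs. Like the ciliated ependyma that lines the ventricles, they derive from the neural tube, and the leaky capillaries beneath them differ from the sealed capillaries of the brain.

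The libraries came from perfused mice between 8 and 10 months old, and the nuclei of frozen hippocampi were sorted on DAPI, a DNA dye. The groups combined P301S, a transgene of human mutant tau driven by the mouse Prnp promoter, with copies of Cgas, the gene of the cytosolic DNA sensor cGAS, whose deletion is carried in the whole body. There were 5 Cgas+/+, 2 Cgas+/- and 2 Cgas-/- mice without the transgene, and 6 P301S Cgas+/+, 6 P301S Cgas+/- and 6 P301S Cgas-/- mice with it, bred as littermates. The study compared the group with tau to the group without it, and the loss of 1 or both copies of Cgas in mice with tau to P301S Cgas+/+. The study left the groups of 2 mice out of its later analyses for their size, and they are given here as values.

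Cgas itself was counted at a low level in all filtered nuclei, at 1.47 ± 0.232 CPM (UMIs of a gene per 1000000 UMIs, mean ± SD over 5 mice) in Cgas+/+, 2.32 ± 0.887 over 6 mice of P301S Cgas+/+ and 1.93 ± 0.547 over 6 mice of P301S Cgas-/-, and at 1.62 and 2.34 in the 2 Cgas-/- mice. The count did not follow the labelled genotype, and the groups are named below by their labels alone. The part of the gene that the allele removes is not given in the sources used here, so the count does not check the labels. Choroid plexus nuclei held 8 Cgas UMIs in all, so the gene could not be compared among them. Libraries held between 46091490 and 79484316 UMIs, with 6224 to 14256 filtered nuclei each.

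The rule itself partly fixes how often its genes were seen. Among the 6 genes of which 3 were required, Enpp2 (autotaxin, a secreted lysophospholipase) was detected in 99.6% of the choroid plexus nuclei, Htr2c (a serotonin receptor) in 99.2%, Otx2os1 (a long noncoding RNA that overlaps Otx2 on the opposite strand) in 97.6%, Clic6 (a chloride channel protein) in 90.0%, Kl (klotho) in 81.9% and Folr1 (the folate receptor) in 58.1%. All 6 were present in 1456 nuclei and 5 in 985, together 84.4%. These genes cannot check the label, and choroid plexus genes that the rule did not use, such as Tmem72, Slc4a5, Cldn2 and Otx2, are given below. The median nucleus had 5328 UMIs, 2586 genes and 17 Ttr UMIs. At the edge of the rule, the 239 nuclei with 3 markers had a median of 1090 UMIs and 2 Ttr UMIs, while the 626 nuclei left out with 2 markers had 1297.5 UMIs and 1 Ttr UMI.

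P301S Cgas+/+ replicate 3 stood apart in this. It gave 171 of the 239 nuclei with 3 markers, and its 227 nuclei with 3 or 4 markers had a median of 1151 UMIs and 2 Ttr UMIs, against 8271 UMIs and 38 Ttr UMIs in its 180 nuclei with 5 or 6 markers. Over all its choroid plexus nuclei the summed level of 7 excitatory neuron markers was 689 CPM and that of 7 oligodendrocyte markers 610 CPM, whereas the other 15 mice with at least 10 choroid plexus nuclei reached at most 269.6 and 366 CPM. With at least 5 markers required, chosen after seeing the data, the numbers of genes called in the comparisons of genotypes given below were 1, 0 and 0. Markers of the other cell types were not absent in the choroid plexus nuclei, with pooled sums of 2178 CPM for inhibitory neurons, 1513 for ependyma, 976 for endothelium, 525 for astrocytes, 405 for fibroblasts, 283 for oligodendrocytes, 238 for excitatory neurons, 186 for oligodendrocyte precursors and 152 for microglia, against 32638 CPM for the 7 choroid plexus markers. Erbb4 alone gave 2155 CPM of the inhibitory sum and Mecom 964 CPM of the endothelial sum, while Flt1, another endothelial marker, stood at 3.345 CPM. Slc6a20a, a fibroblast marker, averaged 362 CPM in choroid plexus nuclei over 15 mice, so the fibroblast sum does not measure fibroblast RNA alone. In the libraries as a whole, 7324 of 234470 distinct barcodes occurred in more than 1 library, and 1 barcode was a choroid plexus nucleus in 2 of them.

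The genes of highest count in choroid plexus nuclei were Trpm3, Malat1, Htr2c, Enpp2, Frmpd4, Stk39, Magi2, Cadm2, Otx2os1, Zbtb20 and Ttr. Trpm3, a calcium-permeable channel, took 34913 CPM pooled over all choroid plexus nuclei, against 1029 CPM in the other filtered nuclei, and Htr2c took 14211 against 106 CPM. Trpm3 also stood at 15594 CPM in the 1229 fibroblast-gated nuclei, which had at least 3 of the 7 genes Slc6a13, Ranbp3l, Slc47a1, Bnc2, Col1a2, Slc6a20a and Eya2 detected. The order by count favours long genes, since reads within introns were counted. Trpm3 spans 856 kb of chromosome 19 (22139046 to 22995410, mm10) and Ttr 9.04 kb. Per kb of gene span, Ttr stood at 406 CPM, Enpp2 at 81.2, Htr2c at 60.5 and Trpm3 at 40.8, and only Malat1, Gm42418 and mt-Co3 ranked above Ttr among the 3960 genes with at least 50 CPM.

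Over the 16 mice with at least 10 choroid plexus nuclei, Trpm3 ran from 30172 to 39801 CPM with a median of 35188, a coefficient of variation of 8.14%, against 22.3% for Ttr and 19.8% for Htr2c. Ttr ran from 2631 CPM in P301S Cgas+/+ replicate 5 to 6124 CPM in P301S Cgas+/- replicate 5, with a median of 3873. Htr2c had its lowest level, 8883 CPM, in P301S Cgas-/- replicate 5 and its highest, 17898 CPM, in P301S Cgas+/- replicate 5. For each of the 3 genes the ranges overlapped in every comparison of genotypes the study made, and the lowest mouse stood above the pooled level of the other nuclei.

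The genes that set choroid plexus nuclei apart from all other filtered nuclei, ranked by the ratio of pooled CPM among genes with at least 50 CPM, began with Tmem72, a membrane protein, at 1034 against 2.36 CPM, a ratio of 438. Cldn2, the claudin of leaky epithelia that forms a paracellular cation channel, followed at 155 against 0.36 CPM (ratio 431), then Olfr1507, a gene of the olfactory receptor family (97.5 against 0.23 CPM). The top 20 also held the bicarbonate cotransporter gene Slc4a5, the lactate transporter gene Slc16a8, the nucleoside transporter gene Slc28a3, the cadherin gene Cdh3, and the developmental regulators Otx2, Lmx1a and Gmnc. Of 40 Hox genes in the annotation, none had a UMI in the choroid plexus nuclei, which allows at most 0.197 CPM for each (3 UMIs over all of them, counting error only), whereas Zic1 had 38.8 CPM. The Hox genes and Zic1 were picked after their values were seen.

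Genes of fluid secretion were nearly all higher than in the other filtered nuclei. Of 23 listed genes for ion and water transport, all had UMIs, 22 reached 10 CPM and 15 reached 100 CPM. By pooled CPM, a comparison with no test, 21 were higher than in the other filtered nuclei. Of all 27221 genes with a UMI in either, 47.1% were higher in choroid plexus nuclei, and of the 4885 genes at 50 CPM or more in either, 64% were. The counts of this kind given below for other lists are to be read against these shares. Stk39, the kinase SPAK that regulates cation-chloride cotransport, had 5222 CPM, the bicarbonate transporter Slc4a10 2922 CPM, and the cotransporter Slc12a2 (NKCC1) 703 CPM. Slc4a5 stood at 685 against 1.74 CPM, the channel Trpv4 at 364 against 2.54, and the potassium channel Kcnj13 at 195 against 2.56. Aqp1, the water channel of the apical membrane, had 23.3 CPM and was detected in 10.8% of the nuclei, at 57.5 times its level in other nuclei.

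**Figure D1:**
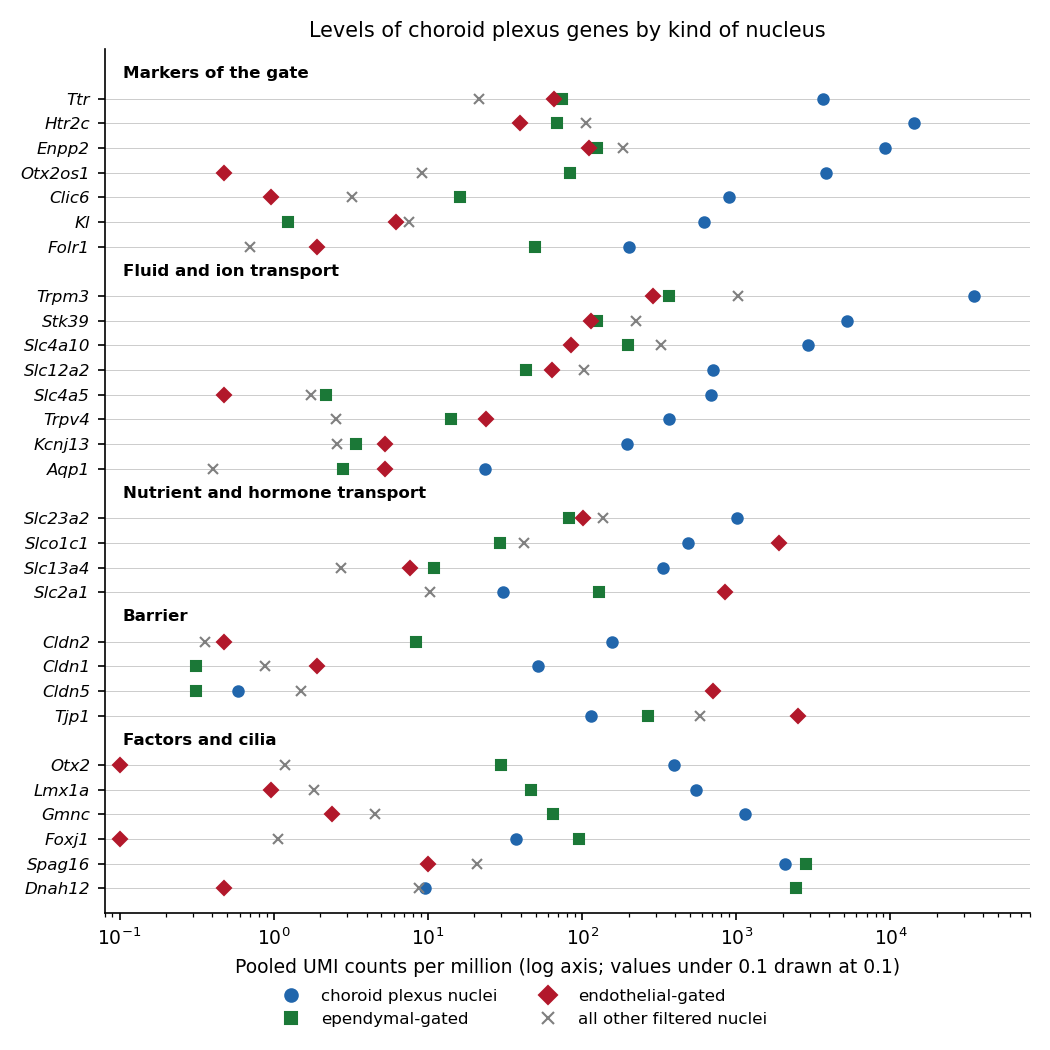
Pooled UMIs per 1000000 (CPM) of genes in choroid plexus nuclei, ependymal-gated nuclei, endothelial-gated nuclei and all other filtered nuclei, on a log axis and grouped by role. Choroid plexus nuclei lead for the 7 genes of the gate and for fluid transport, while Slc2a1, Cldn5 and Tjp1 are highest in endothelial-gated nuclei and Dnah12 in ependymal-gated nuclei.

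Among 26 genes for the transport of nutrients, hormones and drugs, 25 were higher than in other nuclei. Slc23a2 (a vitamin C transporter) had 1011 CPM and Slco1c1 (a thyroxine carrier) 483 CPM. Drug efflux pumps were uneven, with Abcc1 at 164 CPM, Abcc4 at 209, Abcg2 at 16.5 and Abcb1a at 0.72 CPM. Of the receptors, the prolactin receptor Prlr was at 615 CPM, Kl at 614 CPM and the leptin receptor Lepr at 160 CPM. Prlr had a coefficient of variation of 34.6% between mice, against 17.5% for Kl, and ran from 308 CPM in P301S Cgas+/- replicate 1 to 1240 CPM in P301S Cgas-/- replicate 3. Of 16 listed genes for secreted and binding proteins, 11 were higher than in other nuclei. Among them, Bmp7 (142 CPM), Igfbp2 (120 CPM) and Sostdc1, an antagonist of BMP and Wnt ligands (72.0 CPM), were far above the other nuclei. Trf (transferrin) had no UMI here and 0.01 CPM in all other nuclei, so the table carries no information on it.

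Choroid plexus nuclei were then compared with 2 other kinds of nucleus, ependymal and endothelial, each gated in the same way from its own markers. Ependymal-gated nuclei (1112) had at least 4 of 10 genes of ciliated cells detected (Dnah12, Dnah6, Dnah9, Spag17, Hydin, Cfap44, Rgs22, Tmem212, Ccdc153 and Adgb), and endothelial-gated nuclei (1103) had at least 3 of 7 vessel genes (Flt1, Cldn5, Mecom, Adgrl4, Ptprb, Pecam1 and Tek). UMIs were summed per mouse and tested with edgeR's quasi-likelihood test with the mouse as a block, leaving out the genes of the gates. The other nuclei were shallower, with medians of 2661.5 UMIs (ependymal) and 1602 UMIs (endothelial), so fewer weak genes could be tested. Choroid plexus nuclei were higher for 2232 of 5741 genes tested (38.9%) and lower for 2118 (36.9%) against ependymal-gated nuclei in 15 mice, and higher for 1606 of 4609 genes (34.8%) and lower for 1752 (38%) against endothelial-gated nuclei in 16 mice. The gates chose nuclei of different types, so genes that travel with the gate genes had to differ, and the counts of a list below are to be read against these shares. A gene near 0 in one kind could be tested only through its level in the other, so its direction was set by the filter on low counts.

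Fluid transport was higher in choroid plexus than in ependymal-gated nuclei for 17 of 20 tested genes, lower for 1 and not past the test for 2, with a median log2 fold change of 3.93 against 0.09 over all genes tested. Slc4a5 averaged 724 ± 134 CPM (SD, n = 15 mice) in choroid plexus and 1.33 ± 2.81 CPM in ependymal-gated nuclei, higher by 8.01 on the log2 scale (SE 0.21, edgeR adjusted p = 1.21e-32), and Stk39 averaged 5113 CPM against 109. Slc4a5 had 6 UMIs in the ependymal-gated nuclei of these mice, so it could be tested only through its level in choroid plexus nuclei and had to be higher. Of the secreted and binding proteins, 7 of 11 tested were higher and 4 lower, among the latter Cp (ceruloplasmin) at 4.365 against 205 CPM, Apoe at 174 against 707 and Clu (clusterin) at 66.7 against 146 CPM. Transport of nutrients, hormones and drugs was higher for 13 of 15 genes and lower for 1, Slc2a1, the glucose transporter GLUT1 (log2 fold change -2.13, SE 0.15). Against endothelial-gated nuclei, the same 2 lists were higher for 15 of 19 and 11 of 18 genes and lower for 2 and 7. The 7 lower transporters in the latter list were Abcb1a, Abcg2, Slc2a1, Slc22a8, Abcc4, Slco1c1 and Stra6. Abcb1a, the efflux pump of brain capillaries, averaged 0.353 CPM in choroid plexus and 1222 CPM in endothelial-gated nuclei.

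Junction genes moved in both directions. Against endothelial-gated nuclei, Cldn1 was higher in choroid plexus nuclei (log2 fold change 4.26, SE 0.49) and 6 of the 9 tested junction and polarity genes were lower, including the scaffold Tjp1 (-4.38, SE 0.12) and occludin, Ocln (-1.57, SE 0.11). Cldn2 averaged 158 against 0.836 CPM, but it had 1 UMI in all endothelial-gated nuclei, so it could be tested only through its level in choroid plexus nuclei and had to be higher. Cldn1 was also low in endothelial-gated nuclei, and the same limit holds for it. Cgnl1, a junction adaptor, did not pass the test, with 504 against 518 CPM. Cldn5, the claudin of brain capillaries and a gene of the endothelial gate, was at 0.59 CPM in choroid plexus nuclei. Against ependymal-gated nuclei, 7 of 11 tested genes of this list were higher and 2 lower, and Ocln did not pass the test (125 against 119 CPM).

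Choroid plexus nuclei carried a partial programme of motile cilia genes. Of the 32 listed genes, 27 were higher than in the other filtered nuclei by pooled CPM, among them Spag16 of the axoneme (2065 against 20.8 CPM) and Dnah11, a dynein heavy chain (311 against 6.75 CPM), but Dnah12 (9.64 CPM) and Tmem212 (3.02 CPM) were near the level of other nuclei. Against endothelial-gated nuclei the 19 genes that could be tested were higher (median log2 fold change 6.10), and as most were near 0 there, they could be tested only through their level in choroid plexus nuclei and had to be higher. Against ependymal-gated nuclei, 21 of 22 were lower and 1, Gmnc, was higher, with a median of -2.09. The ependymal gate was itself built on cilia genes, so this direction is partly set by the gate. Gmnc, a regulator of multiciliated cell fate, averaged 1259 CPM in choroid plexus and 56.3 CPM in ependymal-gated nuclei, higher by 4.22 on the log2 scale (SE 0.14, edgeR adjusted p = 3.01e-27). The distances between cilia genes were wide: Spag16 was lower by a log2 fold change of -0.45 (SE 0.08), whereas Dnah5, a dynein of the outer arm, was lower by -7.40 (SE 0.23), at 3.16 against 677 CPM.

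The transcription factors went both ways against ependymal-gated nuclei, with 5 of 11 tested higher and 5 lower, beside 38.9% and 36.9% of all genes. Otx2, Lmx1a, Msx1, Mitf and Rfx3 were higher in choroid plexus than in ependymal-gated nuclei, Otx2 at 427 against 31.3 CPM (log2 fold change 3.60, SE 0.19), and Foxj1, Rfx2, Sox9, Meis1 and Nr2f1 were lower, the master regulator of motile cilia Foxj1 at 38.2 against 103 CPM. Zic1 did not pass the test. The 10 genes of the largest fitted fold change toward choroid plexus were, in order, Igsf5, Esrrb, 4930402D18Rik, Acnat1, Slc4a5, Dcdc2c, Tmem72, Crhr2 (a receptor of corticotropin-releasing factor), Sult1c2 and Cdh3. Most had few or no UMIs in ependymal-gated nuclei, so this order is not firm. The nuclear receptor gene Esrrb and Igsf5 had no UMI in ependymal-gated nuclei and were at least 93.1-fold and at least 151-fold higher in choroid plexus (floor of 3 UMIs over the group). Toward ependymal-gated nuclei they were Gm10714, Sntn, Dthd1, 3300002A11Rik and Cdhr3.

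Interferon-stimulated and antigen-presentation genes had low counts in choroid plexus nuclei, and 27 of 57 interferon genes and 8 of 12 MHC class I genes were higher than in all other filtered nuclei by pooled CPM, against 47.1% of all genes with a UMI. Of the interferon genes, 18 reached 10 CPM and none 100 CPM, the highest being Ifi27 at 86.6 CPM. Against endothelial-gated nuclei, 25 of the 26 genes that could be tested were lower and Ifi27 was higher, with a median log2 fold change of -3.12 against -0.04 over all genes. Several of the 25, such as Isg15 (0.0819 against 49.2 CPM) and Oasl2 (0.743 against 122 CPM), could be tested only through their level in endothelial-gated nuclei and had to be lower. Rnf213, which was counted well in both, averaged 56.2 against 191 CPM. The type I receptor gene Ifnar1 averaged 18.3 against 260.5 CPM. Of the MHC class I genes, 6 of 6 tested were lower, H2-K1 at 7.56 against 291 CPM and B2m at 4.15 against 142. Genes this low in choroid plexus nuclei could be tested only through their level in endothelial-gated nuclei and had to be lower. No gene of the MHC class I list could be tested against ependymal-gated nuclei. Against ependymal-gated nuclei the interferon list was mixed, with 2 of 14 tested genes higher, 5 lower and 7 not past the test. Of the cGAS-STING pathway, Tmem173, the gene of STING, had 4 UMIs over all choroid plexus nuclei, Trex1 none, and the downstream kinase Tbk1 stood at 79.9 CPM. Against endothelial-gated nuclei, 2 of the 3 tested genes of the pathway list were lower, the RNA sensor genes Ddx58 (19.8 against 77.8 CPM) and Ifih1 (13.6 against 86.35 CPM), and Tbk1 did not pass the test (84.4 against 85.0 CPM). Against ependymal-gated nuclei, 1 of 3 was higher, Tbk1 (80.3 against 49.4 CPM), and 1 lower, the related kinase gene Ikbke (5.12 against 46.7 CPM).

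**Figure D2:**
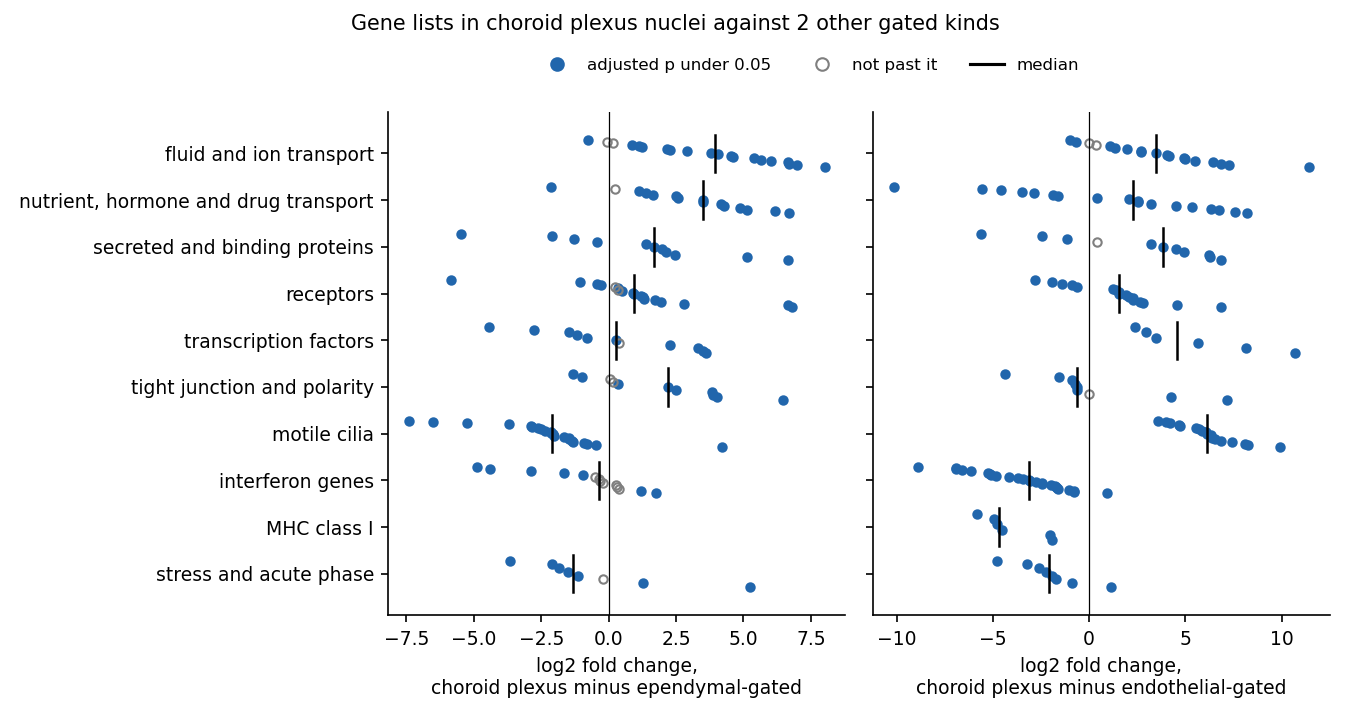
Log2 fold change of each tested gene of 10 lists, choroid plexus nuclei minus ependymal-gated nuclei (left, 15 mice) or minus endothelial-gated nuclei (right, 16 mice), with filled points past an edgeR adjusted p of 0.05 and a bar at the list's median. The cilia list lies left of 0 against ependymal-gated nuclei (median -2.09) and right of 0 against endothelial-gated nuclei (median 6.10), and interferon genes lie left of 0 against endothelial-gated nuclei but for Ifi27.

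The number of choroid plexus nuclei differed between mice far more than between groups. Their share of filtered nuclei was 1.31% over all libraries and ran from 0.0131% in Cgas+/+ replicate 3 (1 nucleus) to 5.43% in Cgas-/- replicate 2 (411 nuclei). There were 8 mice over 1%, between 1.19% and 5.43%, which held 93.3% of all choroid plexus nuclei, and 19 mice of at most 0.649%. High and low mice stood side by side within a genotype. The Cgas+/+ mice held 3.52%, 4.95%, 0.0131%, 0.0299% and 0.0784%, and the 2 Cgas-/- mice held 0.0146% and 5.43%. A share from 1 nucleus is loose, with an exact 95% binomial interval of 0.000331% to 0.0728% for Cgas+/+ replicate 3, which covers counting error only.

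P301S Cgas+/+ mice ran from 0.0143% to 4.99% with a median of 1.57%, P301S Cgas+/- mice from 0.0946% to 1.98% with a median of 0.135%, and P301S Cgas-/- mice from 0.0307% to 0.649% with a median of 0.152%. All 3 comparisons overlapped. The share averaged 2.08% ± 2.29 (SD) over 6 P301S Cgas+/+ mice against 1.72% ± 2.35 over 5 Cgas+/+ mice, a difference of 0.366 percentage points (exact permutation test, two-sided, p = 0.799, Benjamini-Hochberg adjusted over 3 comparisons p = 0.799). It was 0.207% ± 0.232 over 6 P301S Cgas-/- mice, a difference of -1.88 points from P301S Cgas+/+ (exact permutation p = 0.154, adjusted p = 0.325), and 0.608% ± 0.797 over 6 P301S Cgas+/- mice, a difference of -1.48 points (exact permutation p = 0.216, adjusted p = 0.325). For the loss of both copies, the unadjusted exact permutation p was 0.0433 with P301S Cgas+/+ replicate 4 left out and 0.0476 with replicate 2 of that group left out, its 2 mice of lowest share. The tau difference was negative without any 1 of P301S Cgas+/+ replicates 3 and 5 or Cgas+/+ replicates 3, 4 and 5, down to -0.215 points. Requiring 5 markers, chosen after seeing the data, gave -0.0583 points.

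The libraries differed in the Cell Ranger version in their file headers, 3.0.2 in 12, all of them from male mice, and 3.1.0 in 15. The difference in share with tau was negative within 3.0.2 and positive within 3.1.0, and it also changed sign without single mice, as given above. The part of version, sex or single mice in it was not tested. Within version 3.0.2 the difference was -4.13 points with 2 mice on each side (exact permutation p = 0.333, the smallest that 2 against 2 allows), and within 3.1.0 it was 3.03 points with 4 against 3 mice (exact permutation p = 0.114). The loss of both Cgas copies gave -0.0442 and -2.79 points within the versions, and the loss of 1 copy -0.0032 and -2.21 points.

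**Figure D3:**
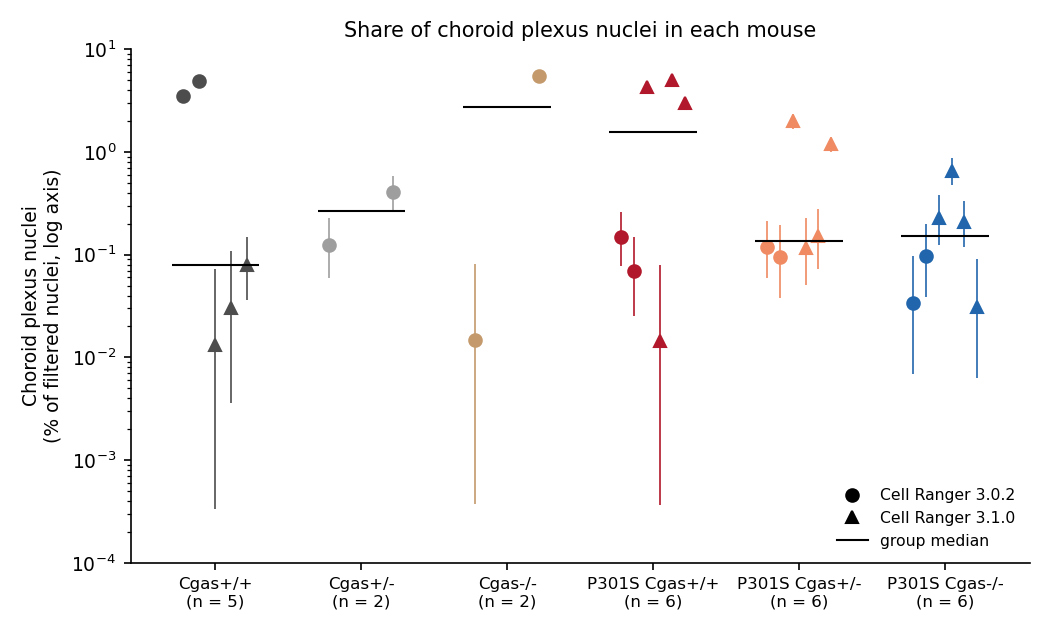
Share of choroid plexus nuclei among filtered nuclei in each of the 27 mice on a log axis, with exact 95% binomial intervals, group medians as bars and the Cell Ranger version as the shape of the point. High and low mice occur within Cgas+/+, Cgas-/-, P301S Cgas+/+ and P301S Cgas+/- groups, and all 6 P301S Cgas-/- mice lie at or under 0.649%.

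Ttr was also counted in nuclei of other types, at a level that was higher in mice with a larger share of choroid plexus nuclei. The rule itself asked for a Ttr UMI, so this share and Ttr in other nuclei are not independent measures, and their relation is given as a description with no test. In oligodendrocyte-gated nuclei (Mog and Mag summing to over 1 UMI), Ttr ran from 1.18 CPM in P301S Cgas+/+ replicate 4 to 552 CPM in Cgas+/+ replicate 2, with Pearson r = 0.80 and Spearman rho = 0.83 against the share over 27 mice. In excitatory-gated nuclei (Slc17a7 and Camk2a summing to over 1 UMI) r was 0.73 and rho 0.89. With at least 4 markers required for the share, r was 0.78 and 0.60. Without P301S Cgas+/+ replicate 3 it was 0.77 and 0.93, and without the 2 mice farthest from the median share 0.87 and 0.79. Within Cell Ranger 3.0.2 (12 mice) r was 0.80 and 0.95 (though rho was 0.54 for the former), and within 3.1.0 (15 mice) 0.90 and 0.75. Within the 8 mice over 1%, r was 0.59 and 0.36, and within the 19 others 0.82 and 0.88.

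At least 1 Ttr UMI was present in 8.001% of 43567 oligodendrocyte-gated nuclei (median depth 2092 UMIs), 6.44% of 105208 excitatory-gated nuclei (median 8857 UMIs) and 6.05% of 16546 inhibitory-gated nuclei (median 8484 UMIs). These are the shares that Ttr detection alone gives in nuclei of other types, pooled over all mice. The mice differed widely in this. Of 7951 Ttr UMIs in oligodendrocyte-gated nuclei, Cgas+/+ replicate 2 held 2635 and P301S Cgas+/+ replicate 3 held 1519. These mice gave 360 and 407 choroid plexus nuclei. P301S Cgas+/+ replicate 4, with 1 choroid plexus nucleus, held 7 such UMIs. The pooled shares are therefore no level for a single mouse, and the share within each mouse was not tested. The ratio of Ttr to Otx2os1 UMIs was 0.966 in choroid plexus nuclei, 0.884 in ependymal-gated, 1.72 in inhibitory-gated, 2.03 in excitatory-gated, 2.98 in oligodendrocyte-gated and 6.67 in fibroblast-gated nuclei, while endothelial-gated nuclei held 137 Ttr UMIs and 1 of Otx2os1. Where this Ttr came from was not tested.

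**Figure D4:**
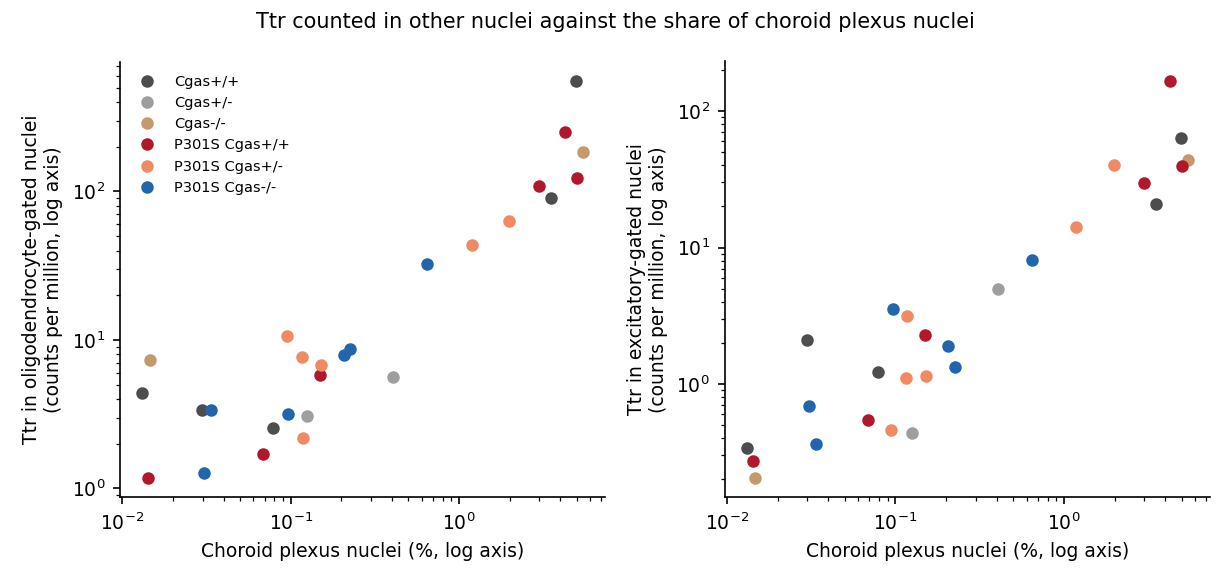
Ttr CPM in oligodendrocyte-gated (left) and excitatory-gated (right) nuclei of each of the 27 mice against the share of choroid plexus nuclei, both on log axes, with the genotype as colour. Mice with under 0.1% choroid plexus nuclei have at most 10.6 CPM of Ttr in oligodendrocyte-gated nuclei, and Cgas+/+ replicate 2 reaches 552 CPM.

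The share of ependymal-gated nuclei rose with that of choroid plexus nuclei as well (r = 0.61, permutation p = 0.00192, adjusted over the 3 relations tested p = 0.00576, and rho = 0.61, permutation p = 0.00078, adjusted p = 0.00234). It was weaker without the 2 mice farthest from the median (r = 0.44, permutation p = 0.0256) and gave r = 0.48 within Cell Ranger 3.0.2 (permutation p = 0.117) and 0.75 within 3.1.0 (p = 0.00182). Within the 8 mice over 1% r was 0.63 (permutation p = 0.0827), and within the 19 others 0.38 (p = 0.1). The 2 shares may not be independent measures, since ependymal-gated nuclei also held choroid plexus signal. Otx2os1 stood at 83.5 CPM in them, against 9.14 CPM in all filtered nuclei outside the choroid plexus, and 10.7% of them had a Ttr UMI. The part of this signal in the relation was not tested. No relation was detected with the share of endothelial-gated nuclei (r = -0.18, permutation p = 0.378, adjusted p = 0.567) or of fibroblast-gated nuclei (r = -0.09, permutation p = 0.766, adjusted p = 0.766).

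The question whether tau or Cgas copies changed expression within choroid plexus nuclei could be put only to mice with at least 10 of them, which were 2 Cgas+/+, 4 P301S Cgas+/+, 4 P301S Cgas+/- and 3 P301S Cgas-/- mice, with between 48681 and 3137319 UMIs summed per mouse. One fit with edgeR's quasi-likelihood test and sex as a covariate tested 9513 genes. With tau, 1 gene passed an adjusted p of 0.05 (0.0105% of those tested) and 537 an unadjusted p of 0.05. With the loss of both Cgas copies none passed (0%), with 507 at an unadjusted p under 0.05, and with the loss of 1 copy none (0%), with 397. DESeq2 called 2, 0 and 0 genes.

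The gene called with tau was Gm26848, a long intergenic noncoding RNA (chromosome 17, 6314199 to 6493180, plus strand). It stood at 306 and 228 CPM in the 2 Cgas+/+ mice and at 124, 104, 105 and 85.6 CPM in the 4 P301S Cgas+/+ mice, without overlap. The log2 fold change was -1.44 (SE 0.24, edgeR adjusted p = 0.00331). The other mice without the transgene, which took no part in the comparison, were lower than Cgas+/+, at 179 and 115 CPM in Cgas+/- and 115 CPM in Cgas-/-. Both Cgas+/+ mice were male and of Cell Ranger 3.0.2, and with that version as a covariate the log2 fold change was -1.19 (edgeR adjusted p = 0.835). Gm26848 also missed the threshold without P301S Cgas+/+ replicate 6 (edgeR adjusted p = 0.472) and with mice of at least 5 choroid plexus nuclei (0.181). Without P301S Cgas+/+ replicate 6 the comparison called 1 other gene, and without P301S Cgas+/+ replicate 3 it called 4. Leaving out either Cgas+/+ mouse leaves 1 mouse on that side, with no spread of its own, so those fits cannot decide whether a gene changed.

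The genes next in order were Nxph1, Neb, Alcam and Sorl1, none of which passed. Sorl1, a sorting receptor for amyloid precursor protein, was at 10.4 and 11.1 CPM in Cgas+/+, at 27.6, 56.5, 23.3 and 33.7 in P301S Cgas+/+ and at 10.8, 10.5 and 9.31 in P301S Cgas-/- mice. The groups did not overlap in either comparison, while the log2 fold changes of 1.82 (SE 0.42) with tau and -1.85 (SE 0.61) with the loss of both copies had edgeR adjusted p = 0.159 and 0.89. The P301S Cgas-/- values rest on 1, 3 and 1 UMIs, and the lowest count among P301S Cgas+/+ mice was 2 UMIs, in replicate 1. Both comparisons use the P301S Cgas+/+ mice. Sorl1 is far more abundant outside the choroid plexus (163 against 24.2 CPM pooled). The highest of the 4 P301S Cgas+/+ values was that of replicate 3, the mouse with the most excitatory neuron and oligodendrocyte marker signal. The part of that signal in the result was not tested. The 4 P301S Cgas+/- mice had 61.6, 29.6, 27.8 and 18.3 CPM. The other mice without the transgene took no part in the comparison. Cgas+/- replicates 1 and 2 held 0 of 50289 and 4 of 164525 UMIs, and Cgas-/- replicate 2 held 42 of 2450340. Cgas+/- replicate 2 thus lay above the lowest P301S Cgas+/+ mouse, and Cgas-/- replicate 2 above both Cgas+/+ mice.

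For the loss of both Cgas copies the genes of smallest p were Elmo1, Pcolce2, Phtf2, Eya2 and Tsg101. Pcolce2, an enhancer of procollagen processing, was at 207, 132, 130.05 and 207 CPM in P301S Cgas+/+ and 367, 332 and 270.0 CPM in P301S Cgas-/- mice, higher by 1.03 on the log2 scale (SE 0.23, edgeR adjusted p = 0.227). Elmo1, a regulator of engulfment that microglia also use, was at 55.2, 32.3, 48.8 and 32.5 CPM against 0, 0 and 9.31 CPM (edgeR adjusted p = 0.227), the last being 1 UMI. Without the transgene, Cgas-/- replicate 2 held 42 Elmo1 UMIs of 2450340, and the Cgas+/+ mice in the fit 27 of 1446587 and 33 of 2065473. Summed microglial markers ran from 69.0 to 174 CPM in P301S Cgas+/+ mice and from 55.9 to 115 CPM in P301S Cgas-/- mice. Eya2 rested on P301S Cgas-/- replicate 3, where 8 nuclei held 23 UMIs (248 CPM against at most 21.0 CPM in every other mouse). All 14 choroid plexus nuclei of that mouse, which also gave the highest Prlr level, were among the likely doublets by their Scrublet score, as were all 10 of Cgas+/- replicate 1, and the part of doublets in these values was not tested. Eya2 is a gene of the fibroblast gate, and the 7 other fibroblast markers summed to 582 CPM in that mouse and to between 299 and 478 CPM in the 4 P301S Cgas+/+ mice. P301S Cgas+/- replicate 6 had a higher sum of these 7, 852 CPM, with 2 Eya2 UMIs. Among the fibroblast markers, Slc6a20a averaged 362 CPM in choroid plexus nuclei over 15 mice, so these sums do not measure fibroblast RNA alone. For the loss of 1 copy the genes of smallest p were Sult1c2, Kcnd3, Slc24a3, Rsad1 and Prr5l, each with an edgeR adjusted p of 0.198. These 2 comparisons share the P301S Cgas+/+ mice, and Pcolce2 gave a log2 fold change of 0.85 (SE 0.20) in the latter. Kcnd3, a potassium channel, was at 110.4, 129, 106 and 97.4 CPM in P301S Cgas+/+ and at 20.5, 45.5, 27.8 and 58.3 CPM in P301S Cgas+/- mice, without overlap. The latter values rest on 1, 43, 2 and 35 UMIs.

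**Figure D5:**
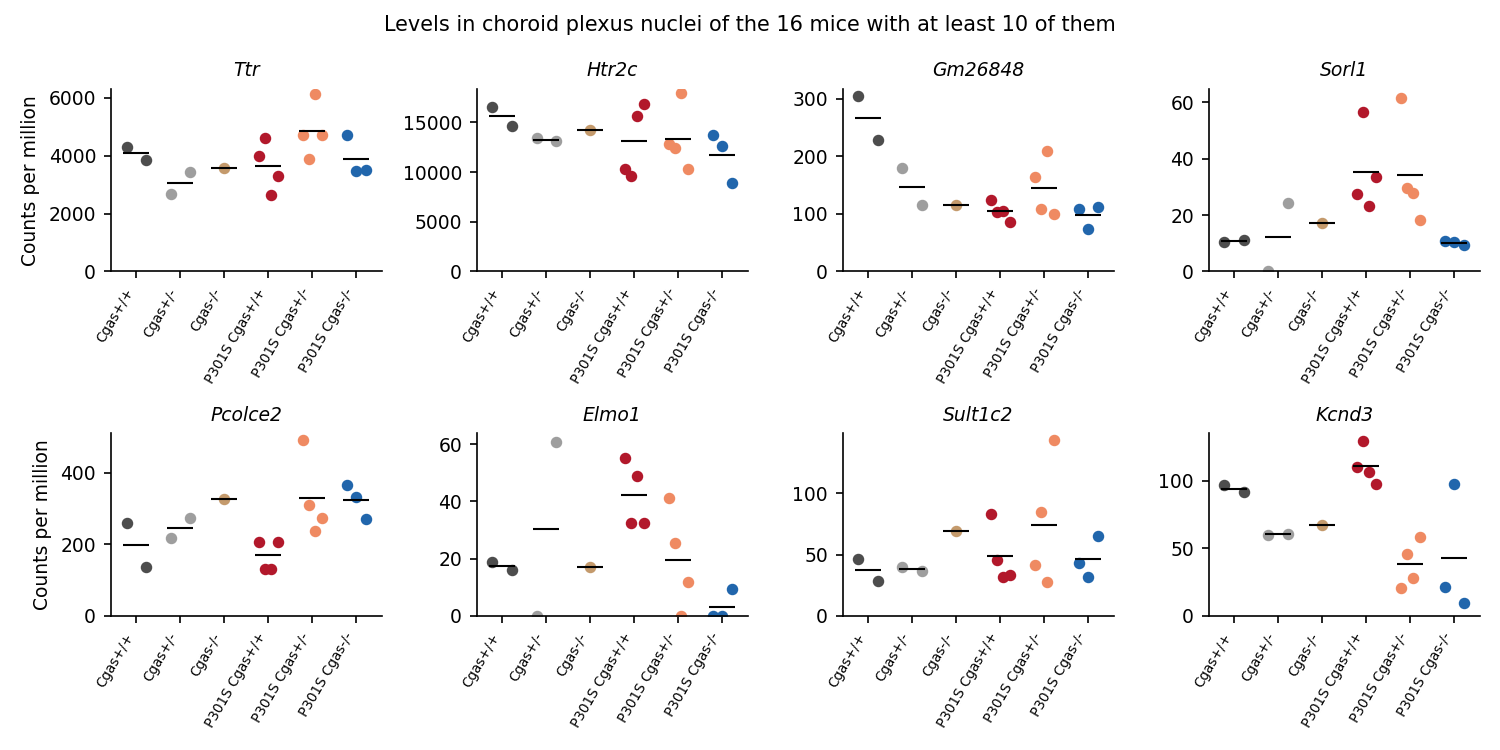
CPM of 8 genes in choroid plexus nuclei of the 16 mice with at least 10 of them, by genotype group, with the group mean as a bar. Ttr and Htr2c overlap in each of the 3 comparisons of genotypes the study made, and Gm26848 is highest in Cgas+/+. Sorl1 lies between 9.31 and 11.1 CPM in Cgas+/+ and P301S Cgas-/- mice and at 23.3 CPM or more in P301S Cgas+/+ mice. For Sorl1, Cgas+/- replicate 2 (4 UMIs) lies within the range of the P301S Cgas+/+ mice.

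No gene of the 12 role lists passed in any comparison. The 27 cilia genes tested had a median log2 fold change of 0.09 with tau (20 above 0). It was 0.29 with the loss of both copies (22 above 0) and -0.29 with the loss of 1 copy (3 above 0). All 9513 genes tested had medians of -0.02, -0.02 and -0.01, with 4490, 4542 and 4657 above 0. The counts above 0 in this paragraph are to be read against these. The summed ependymal markers, 9 of 10 of which are on the cilia list, ran from 1401 to 1734 CPM in P301S Cgas+/+, from 1899.55 to 2092 CPM in P301S Cgas-/- and from 1118 to 1479 CPM in P301S Cgas+/- mice, and their part in the list's medians was not tested. The 20 interferon genes tested had medians of 0.09 with tau, -0.15 with the loss of both copies and -0.14 with the loss of 1 copy, and the 5 tested genes of the cGAS-STING pathway -0.06, -0.03 and -0.05. The 8 stress genes tested had medians of -0.10 with tau, -0.05 with the loss of both copies and 0.46 with the loss of 1 copy, with 4, 4 and 6 above 0. The 12 secreted and binding proteins tested had medians of -0.08, 0.26 and 0.12, with 4, 11 and 7 above 0. App, the amyloid precursor gene (818 CPM pooled), differed by -0.21 (SE 0.21) with tau and 0.06 (SE 0.19) with the loss of both copies.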

How the data were processed

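Per the labels and methods, the authors aligned reads of 10x 3' v3 libraries to mm10 with introns counted, using Cell Ranger (3.1.0 in the processing notes, 3.0.2 in the file headers of 12 libraries), and deposited raw UMI counts per gene and barcode, 1 matrix per mouse. Nuclei were filtered as in the opening paragraph. The choroid plexus rule and all gene lists were chosen with earlier results of these data known. Doublets were not removed in the main results, since removing the highest Scrublet scores (scanpy 1.11.5) at 0.8% per 1000 barcodes took 7.42% of filtered nuclei and all 35 choroid plexus nuclei of 8 mice. Counts were summed per mouse over nuclei, normalized by TMM and tested with edgeR 4.0.16 (filterByExpr, robust quasi-likelihood, Benjamini-Hochberg adjustment), and DESeq2 1.42.0 was the alternative. The test was tried on simulated data. The range of depth over mice is in the report, and few nuclei in most mice limit precision. Genes were named by fixed rules, which took the role lists, the 20 of highest CPM and the 20 of highest ratio, up to 10 per direction past the threshold or the 5 of smallest p, and the 10 of largest change per gate. Of 31053 gene IDs, 30934 matched GENCODE vM21. Replicates are separate mice, numbered in accession order. Some members of the gene lists are not reported here.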

Additional observations from a re-analysis of the deposited data

Results flagged for a closer look

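In each group of 4 to 10 mice, a mouse was singled out when its gap to the nearest of the others passed Dixon's limit. This was asked of 72 groups of values, and 9 were singled out. Chance alone would give about 1 in 20 for independent, normally distributed values. Shares and Ttr levels here spread widely within groups and were related over mice, so the 9 do not measure an excess over chance. The share of choroid plexus nuclei of P301S Cgas-/- replicate 4 (0.649%) stood above the other 5 mice of its group. Ttr in oligodendrocyte-gated nuclei did so in Cgas+/+ replicate 2 (552 CPM) and P301S Cgas-/- replicate 4 (32.2 CPM), and in excitatory-gated nuclei in P301S Cgas+/+ replicate 3 (166 CPM) and P301S Cgas+/- replicate 3 (40.2 CPM). The share of ependymal-gated nuclei did so in P301S Cgas+/+ replicate 5 (2.01%), and that of fibroblast-gated nuclei in Cgas+/+ replicate 5 (3.01%) and P301S Cgas+/- replicate 3 (1.996%). Neb in choroid plexus nuclei stood at 13.8 CPM in P301S Cgas+/+ replicate 1. That mouse had 12 choroid plexus nuclei with 72460 UMIs in all, so the value rests on very few molecules. Outside the comparisons, Cgas-/- replicate 2 had the highest share of choroid plexus nuclei of all mice (5.43%, against at most 4.95% in the control group Cgas+/+), and the other mouse of its group had 0.0146%.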

How the results depend on the processing

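Settings were changed one at a time. The difference in share with tau turned to -0.0583 points with at least 5 markers and to -4.13 points within Cell Ranger 3.0.2, and leaving out 1 mouse gave -0.215 to 1.17. The loss of both Cgas copies gave -2.29 to -1.30 points without 1 mouse and the loss of 1 copy -1.89 to -0.894. Called genes with tau, 1 in the report, were 2 with DESeq2, 21 with no low-count filter, 0 with mice of at least 5 choroid plexus nuclei, 3 with at least 20, 3 with likely doublets removed, 16 without the sex covariate, 2 with all groups in the fit, 7 with only the 2 groups, 0 with the Cell Ranger version as covariate, and 1 to 4 without 1 P301S Cgas+/+ mouse. With the loss of both copies, 0 in the report, they were 16 with no low-count filter, 3 with mice of at least 20 nuclei, where the single P301S Cgas-/- mouse left is assumed to vary like the other groups, and 0 to 3 without 1 mouse, the 3 without P301S Cgas-/- replicate 4 or replicate 5. With the loss of 1 copy they were 27 with no filter, 4 with at least 20 nuclei, 2 with doublets removed, 1 with only the 2 groups and 0 to 1 without 1 mouse. Against ependymal-gated and endothelial-gated nuclei, no filter gave 8158 and 6952 called genes, with more genes tested. The relation to Ttr in oligodendrocyte-gated and excitatory-gated nuclei fell to r = 0.59 and 0.36 in the 8 mice over 1%. That to the ependymal-gated share missed the threshold within Cell Ranger 3.0.2 (r = 0.48), in the 8 mice over 1% (0.63) and in the 19 others (0.38). That to the endothelial-gated share turned to 0.24 in the 19. The cause of these changes was not tested. Splits by share and by 5 markers, and leaving P301S Cgas+/+ replicate 3 out of the gate comparisons and relations, were chosen after seeing the data. The comparisons of genotypes were not paired, because the labels give nothing that pairs mice of different groups. Few choroid plexus nuclei in 11 of 27 mice, and 2 Cgas+/+ mice in the gene comparison, limit what could be seen.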
